A study of Mus musculus with 4 samples.

Results

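Genes were sought whose level in cultured wild-type articular chondrocytes lay outside the levels of all 3 modified chondrocyte cultures of the same series. Of the 55141 genes listed, 7154 averaged 5 TPM or more across the 4 libraries and had at least 60 reads summed over the 3 libraries with deposited reads. TPM are reads divided by gene length and scaled to the same total in each library. Wild type lay above all 3 others in 1909 of these genes (26.7%), below all 3 in 2070 (28.9%) and between them in 3175. The 3979 genes outside the other 3 were ranked by the smallest of their 3 ratios. That ratio reached 2 in 79 genes, of which 20 (0.28% of the genes past the filter) were higher and 59 (0.825%) were lower in wild type.

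The cells came from femoral head cartilage of 3-week-old mice, were freed with collagenase and were grown in DMEM with fetal bovine serum. Each of the 4 conditions had 1 library, so no difference could be checked against replicates and no p-values are printed. Values are given in the order wild type, Cart-miR-23clus KO, then the miR-26a KO and last the library with the mimic, unless stated otherwise. Libraries were made with QuantSeq, which reads the 3′ ends of mRNAs, and held from 1336496 to 1505805 reads on genes. Wild type was labelled C57BL/6. The study's methods use mice with floxed miR-23a/b clusters and no Cre as their Control. Its account of these libraries uses both terms, wild type as the labels do and Control, so the exact genotype is not certain. Cart-miR-23clus KO carried floxed miR-23a/b clusters and the Col2a1-cre transgene on C57BL/6. Cre is driven by the promoter of the type II collagen gene, so deletion is limited to cells that have used it. The miR-26a KO culture (miR-26a -/-, C57BL/6) lacked miR-26a. The fourth culture was of the same miR-26a -/- genotype, labelled C57BL6/J, and was transfected with a miR-26a mimic, a double-stranded RNA that carries the mature miRNA. A control siRNA is also described, but not whether the cells of the miR-26a KO library received it. All 3 ratios share the wild-type library, and 2 of the 3 modified libraries share a genotype, so the 3 ratios of a gene are not independent of each other.

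MicroRNAs bind mRNAs mainly through bases 2 to 8, the seed, and lower the stability or translation of the mRNAs they bind. Femoral head cartilage at this age is still growing: chondrocytes divide, deposit type II collagen and aggrecan, and near the ossification front turn on mineralisation genes, while chondrocytes kept on plastic tend to lose this programme and take up a fibroblast-like one. Mature miRNAs removed or added in the 3 modified cultures are shown because they differ in seed between the 2 kinds of knockout. Capitals mark the seed, and miR-23b-3p of the miR-23b cluster is named only.
miR-23a-3p: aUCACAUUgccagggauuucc
miR-27a-3p: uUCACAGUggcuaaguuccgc
miR-27b-3p: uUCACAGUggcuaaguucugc
miR-24-3p: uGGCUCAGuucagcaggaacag
miR-26a-5p and the sense strand of the mimic: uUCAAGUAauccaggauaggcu
On GRCm38.p6 these lie on chromosome 8 from 84208563 to 84208583 (miR-23a-3p), from 84208727 to 84208747 (miR-27a-3p) and from 84208875 to 84208896 (miR-24-3p of Mir24-2). On chromosome 13 they lie from 63300760 to 63300780 (miR-27b-3p) and from 63301251 to 63301272 (miR-24-3p of Mir24-1). The sequence of miR-26a-5p lies on chromosome 9 from 119031811 to 119031832 and on chromosome 10 from 126995543 to 126995564. miR-27a-3p and miR-27b-3p share a seed, and none of the seeds of the miR-23a/b clusters shown is that of miR-26a-5p. The mimic supplied the sequence of miR-26a-5p to cells of the miR-26a -/- genotype. The loci themselves gave no check of the labels, since Mir23a, Mir27a, Mir24-2, Mir23b, Mir27b, Mir24-1, Mir26a-1 and Mir26a-2 had 0 reads in every library. At this depth 0 reads leave room for at most 0.000224% of the reads on genes in Cart-miR-23clus KO. The libraries read 3′ ends of mRNAs, so this bounds reads at these loci and not the level of the mature miRNAs.

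The cultures carried chondrocyte transcripts in every library. Col2a1, the chain of type II collagen, stood at 7062 TPM in wild type against 5452, 5565 and 5664. Sox9, the main chondrocyte transcription factor, ranged from 463 to 499.5 TPM. Macrophage transcripts were present as well: the 28 genes of that list summed to 2936 TPM in wild type against 4869, 3412 and 4385. Lgals3, galectin-3, which other cells also make, was the largest of them at 1517 TPM against 3135, 2882 and 3444. Without Lgals3 the sums were 1419, 1734, 530.5 and 941 TPM, and wild type lay above both miR-26a libraries. Lyz2, lysozyme of macrophages, had 518, 507, 177 and 296 TPM. Adipocyte genes summed to 371, 1088, 329 and 362 TPM in the same order. Endothelial genes summed to between 23.5 and 40.7 TPM with Cdh5 at 0 everywhere, skeletal muscle genes to 17.1 TPM or less, and erythroid, lymphocyte and neutrophil genes to 2.78 TPM or less. In RNA from a whole culture, fewer cells of a type and less RNA per cell cannot be told apart.

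Most of the 3979 genes lay close to the nearest of the other 3 libraries. Of the 1909 genes with wild type on top, 879 had a smallest ratio under 1.1 and the median was 1.11. Of the 2070 genes with wild type at the bottom, 827 were under 1.1 and the median was 1.13. The exact 95% interval of the ratio, which covers counting error only and compares these libraries and not the conditions, stayed on 1 side of 1 in all 3 comparisons for 240 genes above (3.35%) and 317 genes below (4.43%). Those included each of the 20 and each of the 59 genes past 2-fold. These were picked by the same ratios that the intervals describe, so their intervals are no separate support. Between the 1.5-fold and 2-fold limits, 53 of 72 genes above and 85 of 159 genes below met the same criterion.

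The other libraries were set against their own 3 others in the same way to show how far each stood apart. Cart-miR-23clus KO lay at least 2-fold above its 3 others in 38 genes (0.531%) and below them in 56 (0.783%), more genes above than wild type and nearly as many below. The miR-26a KO did so in 2 genes (0.028%) and 14 genes (0.196%), and the mimic library in 0 and 9 genes (0.126%). Against each modified library alone, wild type was at least 2-fold higher in 2.64% of genes and lower in 2.99% for Cart-miR-23clus KO, in 1.52% and 2.6% for the miR-26a KO, and in 1.44% and 2.21% for the mimic library. By any ratio, Cart-miR-23clus KO was highest in 24.8% of genes and lowest in 32%, the miR-26a KO in 25.4% and 18.5%, and the mimic library in 23.1% and 20.6%.

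**Figure D1:**
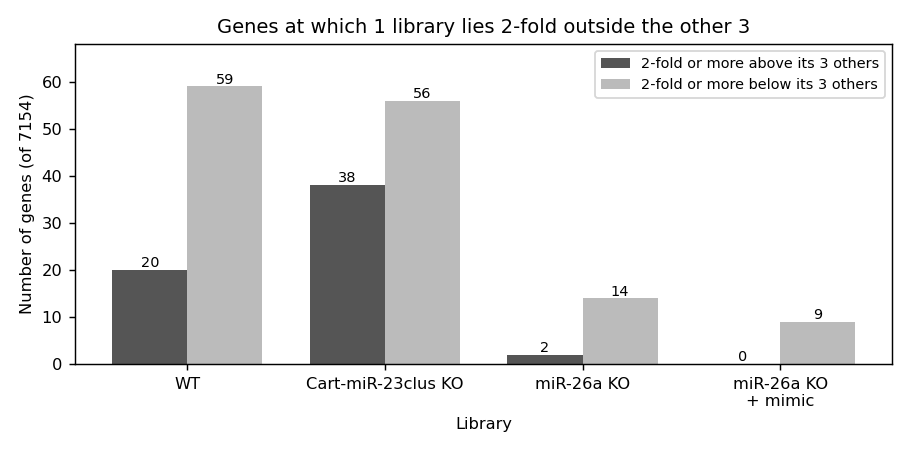
Number of genes, of 7154 past the filter, at which 1 library lay at least 2-fold above (dark bars) or below (light bars) each of the other 3. The horizontal axis gives the library. Wild type had 20 and 59 such genes, Cart-miR-23clus KO 38 and 56, the library of the miR-26a KO 2 and 14, and the mimic library 0 and 9.

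Reads set the precision of these lists. For the 20 genes above, the median number of reads was 85 in wild type and 17.5, 25.5 and 26 in the others. For the 59 genes below it was 27 in wild type, with 23 of them under 20 reads, and 75, 70 and 76 in the others. The filter itself favours genes that are high somewhere: 14 of the 59 had under 5 TPM in wild type and passed through the modified libraries, while 1 of the 20 had a mean under 5 TPM over the modified libraries. Within the 3 modified libraries the highest TPM was within 1.5 times the lowest for 11 of the 20 genes above and 37 of the 59 below. All 59 genes below were protein-coding, as were 19 of the 20 above.

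Among the genes higher in wild type, Slc13a5, a citrate transporter of the plasma membrane, had the largest smallest ratio. Slc13a5 (ENSMUSG00000020805, chromosome 11, 72241989 to 72267222 on GRCm38) had 103 reads in wild type against 2, 24 and 25, or 29.6, 0.633, 7.58 and 7.38 TPM. Its TPM ratios of wild type to the 3 others were 46.8 (95% interval 12.6 to 391), 3.91 (2.49 to 6.37) and 4.02 (2.57 to 6.49). The miR-26a libraries were alike, and the Cart-miR-23clus KO library was far below both. Nrep, a small intracellular protein known from regenerating nerve and wound fibroblasts (ENSMUSG00000042834, chromosome 18, 33437019 to 33464029), had 331, 72, 77 and 91 reads in the same order. Its 3 ratios were alike, at 4.18 (3.23 to 5.47), 3.91 (3.05 to 5.08) and 3.54 (2.80 to 4.52).

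Tmem119 and Smpd3 were the 2 of these genes in the list of bone matrix and mineralisation. Tmem119, a membrane protein that promotes osteoblast differentiation (ENSMUSG00000054675, chromosome 5, 113793729 to 113800516), had 417 reads in wild type against 15, 77 and 153. The ratios were 25.2 (15.1 to 45.5), 4.93 (3.86 to 6.37) and 2.66 (2.20 to 3.22), so wild type stood clear of libraries that themselves spread widely. Smpd3, the neutral sphingomyelinase needed for normal mineralisation, had 290, 61, 95 and 110 reads and a smallest ratio of 2.57 (2.06 to 3.23), against the mimic library. Mef2c, a transcription factor of chondrocyte hypertrophy, had 186, 45, 80 and 84 reads and a smallest ratio of 2.12 (1.62 to 2.79). Mme, which encodes the endopeptidase neprilysin, had 623, 161, 280 and 297 reads and a smallest ratio of 2.03 (1.76 to 2.34). In each of these 4 genes Cart-miR-23clus KO was lowest and the miR-26a libraries lay between it and wild type.

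The cartilage matrix genes Matn1 and Ucma showed another order. Matn1 encodes matrilin-1 of growing cartilage (ENSMUSG00000040533, chromosome 4, 130944385 to 130955475) and had 2495 reads in wild type against 911, 795 and 414. The ratios were 2.49 (2.30 to 2.69), 2.86 (2.64 to 3.10) and 5.87 (5.29 to 6.53), and the mimic library was lowest. Ucma encodes a Gla-rich matrix protein of the upper growth plate (ENSMUSG00000026668, chromosome 2, 4976122 to 4985748) and had 1631, 591, 639 and 482 reads. Its ratios were 2.51 (2.28 to 2.76), 2.32 (2.12 to 2.55) and 3.30 (2.98 to 3.66). C1qtnf3, a secreted protein made in cartilage, stood at 21.3 TPM in wild type and 9.47, 8.54 and 8.82 TPM in the others. Matn1 and Ucma had the most reads of the 20.

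The remaining genes of the 20 were of mixed function and mostly rested on fewer reads. Bambi, a pseudoreceptor that dampens TGF-β and BMP signals, had 100, 16, 27 and 38 reads and a smallest ratio of 2.56 (1.75 to 3.83). Rcor2, a corepressor that binds the demethylase LSD1, had 146, 17, 46 and 48 reads and a smallest ratio of 2.89 (2.06 to 4.12). Aldoc, an aldolase isoform best known from brain, had 67, 16, 16 and 20 reads, while Aldoa, the main aldolase of most tissues, was lowest in wild type at 843 TPM against 974, 958 and 1042. Car8, a carbonic anhydrase-related protein, had 70, 20, 19 and 22 reads and a smallest ratio of 3.10 (1.90 to 5.26). Entpd3, an ectonucleotidase, had 67, 5, 27 and 27 reads. Bcl2l13, Itga7, Kcnk1, Nrros, H2-Ab1 and the small nucleolar RNA Snord104 had smallest ratios from 2.08 to 2.69, each with 58 reads or fewer in wild type. Bcl2l13 overlaps Bid on the other strand.

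H2-Ab1 needs its partners beside it. It encodes the β chain of an MHC class II molecule and had 35, 11, 14 and 10 reads. H2-Aa, the α chain of the same molecule, had 1, 4, 2 and 0 reads, and Cd74, the invariant chain, had 2, 0, 2 and 0 reads. H2-Eb1 had 0 reads in wild type and 4, 4 and 1 in the others. The other class II transcripts were therefore at or near 0 in every library and did not accompany H2-Ab1.

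The 2-fold limit cut through a continuous range. Just inside lay Mef2c (2.12), Snord104 (2.08) and Mme (2.03), and just outside Col1a1 (1.98), Flvcr2 (1.93) and Itm2a (1.93). Col1a1, the α1 chain of type I collagen of bone and fibrous tissue, was the most precise of them. It had 39203 reads in wild type against 7378, 15172 and 19286, with ratios of 4.83 (4.71 to 4.95), 2.35 (2.31 to 2.40) and 1.98 (1.95 to 2.02).

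**Figure D2:**
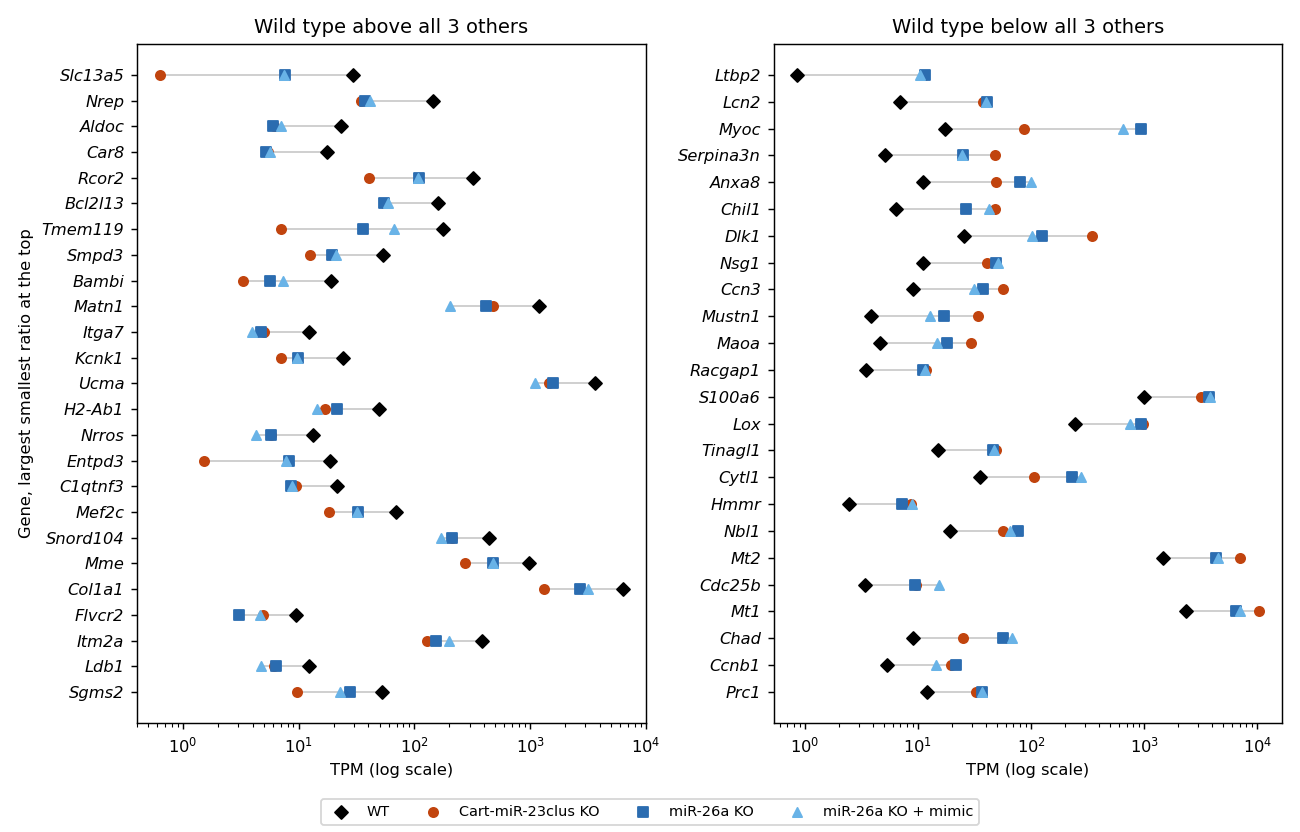
TPM on a log axis in each of the 4 libraries (symbols) for the 25 genes with the largest smallest ratio in each direction, less 1 on the right that is not reported here, wild type above on the left and below on the right; grey lines join the lowest and highest library. Wild type (black diamonds) is the rightmost point of every gene on the left, down to Sgms2 at 1.90-fold, and the leftmost on the right, from Ltbp2 at 12.3-fold to Prc1 at 2.69-fold.

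Bone genes as a group leaned the same way. Of the 46 genes of bone matrix and mineralisation listed, 29 passed the filter, and wild type lay above all 3 others in 17 and below in 4, against 26.7% and 28.9% of all genes. The median log2 ratio of wild type to the others was 0.67 for Cart-miR-23clus KO, 0.22 for miR-26a KO and 0.16 for the mimic library, against medians of 0.02, -0.03 and -0.02 over all genes. Ibsp, the bone sialoprotein that nucleates mineral, had 5063 TPM in wild type against 842, 2967 and 3036. Sp7, the osterix transcription factor of osteoblasts, had 49.8, 16.7, 28.2 and 32.0 TPM. Sgms2, a sphingomyelin synthase, had 52.8, 9.63, 27.7 and 22.7 TPM. Wild type was highest in each of these 3, with Cart-miR-23clus KO lowest.

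The members of the list did not all follow. Alpl, the alkaline phosphatase that frees phosphate for mineral, had 701, 122, 418 and 612 reads and a smallest ratio of only 1.12, so its place above the mimic library was narrow. Bglap, osteocalcin, stood at 213 TPM in wild type and 217 in the mimic library. Spp1, osteopontin, was highest in Cart-miR-23clus KO at 1613 TPM, against 773 in wild type. Tnfrsf11b, the decoy receptor osteoprotegerin that restrains osteoclasts, was lowest in wild type at 55.0 TPM against 86.4, 115 and 98.3. Pdpn, podoplanin of early osteocytes, was also lowest there. Mepe, Phex, Phospho1 and Sost, markers of osteocytes and of mineralising cells, were at 0 in every library.

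In the list of hedgehog, PTHrP and FGF genes, wild type was above all 3 others in 8 of 12 measured members and below in 2, against 26.7% and 28.9% of all genes. All intervals lay on 1 side of 1 in 3 of the 8, against 3.35% of all genes, and none reached 2-fold. Ptch1, the hedgehog receptor and a standard target of the pathway, had 123, 34, 52 and 68 reads and ratios of 3.29 (2.23 to 4.96), 2.15 (1.55 to 3.04) and 1.76 (1.30 to 2.41). Pth1r, the receptor for PTHrP and parathyroid hormone, had 1637, 403, 704 and 1129 reads and a smallest ratio of 1.41 (1.31 to 1.53). Etv5 and Fgf2 were the 2 members lowest in wild type, with 11 and 15 reads there. Etv5 was under 5 TPM in wild type, at 2.65, and passed the filter through the modified libraries.

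Of 30 measured members of the cartilage matrix and regulator list, wild type lay above all 3 others in 14 and below in 9, against 26.7% and 28.9% of all genes, with Matn1 and Ucma past 2-fold above and Cytl1, Chad, Cilp2 and Prg4 past 2-fold below. Hapln1, the link protein that anchors aggrecan to hyaluronan, had 85.1, 47.8, 45.8 and 48.5 TPM and a smallest ratio of 1.76 (1.51 to 2.04). Col9a1, a chain of the type IX collagen that coats type II fibrils, had 561, 348, 333 and 321 TPM and a smallest ratio of 1.61 (1.50 to 1.73). Cnmd, chondromodulin, had 2648 TPM in wild type and from 1629 to 1697 in the others. Acan, aggrecan, had 661 TPM against 592, 472 and 489, a smallest ratio of 1.12. For Hapln1, Col9a1 and Cnmd the 3 modified libraries lay closer to each other than to wild type, whereas for Acan Cart-miR-23clus KO lay nearer to wild type.

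The 4 chondrocyte genes past 2-fold on the other side had their values as follows, with Cart-miR-23clus KO nearest to wild type in each. Cytl1, a cytokine-like protein of cartilage (ENSMUSG00000062329, chromosome 5, 37735519 to 37739820), had 36 reads in wild type against 98, 213 and 275. Its ratios of the others to wild type were 3.00 (2.03 to 4.52), 6.50 (4.55 to 9.53) and 7.84 (5.52 to 11.4). Chad, chondroadherin, had 16, 40, 90 and 116 reads and ratios of 2.75 (1.51 to 5.26), 6.18 (3.60 to 11.3) and 7.44 (4.39 to 13.4). Prg4, the lubricin of the joint surface, had 101, 198, 309 and 381 reads and a smallest ratio of 2.16 (1.69 to 2.77), and Cilp2, a protein of the middle zone of cartilage, had 57, 134, 267 and 237.

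**Figure D3:**
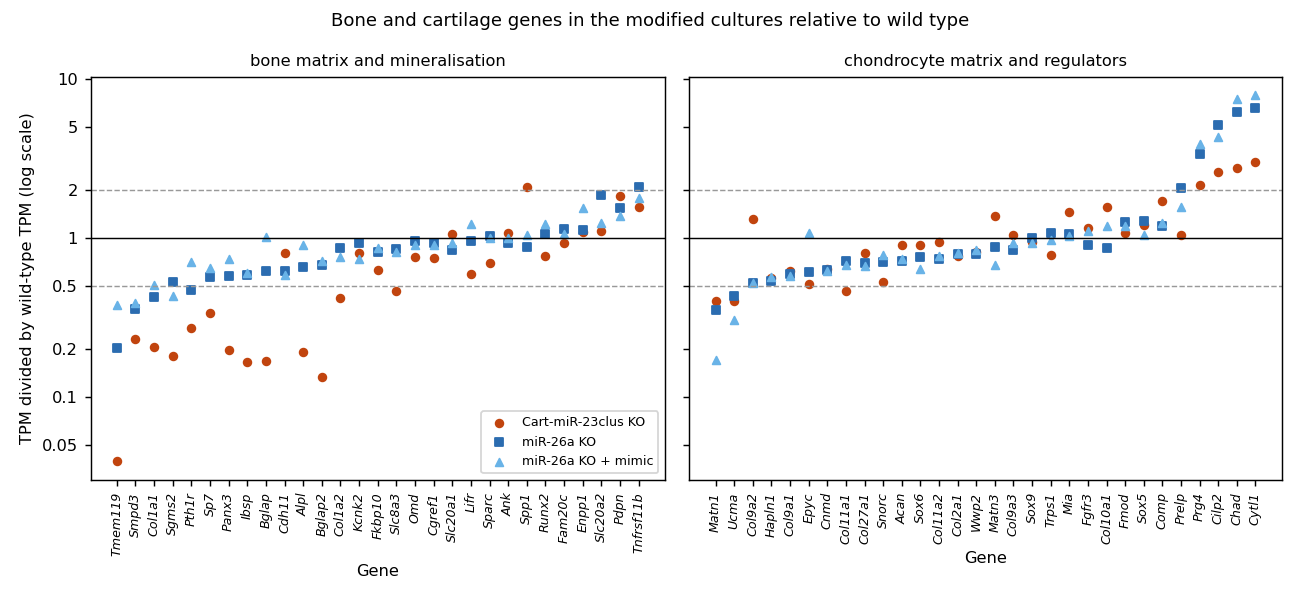
TPM of each modified library divided by that of wild type, on a log axis, for the 29 measured genes of bone matrix and mineralisation (left) and the 30 of chondrocyte matrix and regulators (right); the solid line is equality with wild type and the dashed lines are 2-fold. In 17 bone genes and 14 chondrocyte genes all 3 points lie under the solid line, while Cytl1, Chad, Cilp2 and Prg4 at the far right lie above the upper dashed line.

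Of the genes lower in wild type, Ltbp2 had the largest smallest ratio. At 0.848 TPM in wild type, it passed the filter through the modified libraries. It encodes a latent TGF-β binding protein of elastic microfibrils (ENSMUSG00000002020, chromosome 12, 84783212 to 84876532). It had 6 reads in wild type against 73, 75 and 72 in the others. Its ratios were 13.4 (5.87 to 37.7), 13.7 (6.02 to 38.6) and 12.3 (5.39 to 34.7), nearly the same in the 3 libraries. An antisense gene, D030025P21Rik, overlaps it. The next smallest ratio, that of Lcn2, was 5.39.

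Lcn2, Serpina3n and Chil1 followed near the top. Lcn2, lipocalin-2, which binds bacterial iron carriers and is induced in inflammation, had 10, 49, 53 and 56 reads and ratios of 5.39 (2.70 to 11.9), 5.82 (2.93 to 12.8) and 5.75 (2.90 to 12.6). Serpina3n, a serine protease inhibitor, had 11, 95, 49 and 52 reads. Chil1, a chitinase-like protein often measured in joint disease, had 11, 75, 42 and 71 reads. Ccn3, a matricellular protein, had 27, 154, 103 and 92 reads and a smallest ratio of 3.50 (2.26 to 5.59). In none of these did wild type come within 3-fold of another library.

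Of the 59 genes, Myoc and Dlk1 had the widest spread among the modified cultures. Myoc, the secreted glycoprotein myocilin (ENSMUSG00000026697, chromosome 1, 162639155 to 162649693), had 38 reads in wild type against 170, 1853 and 1362. The ratios were 4.93 (3.45 to 7.20), 53.6 (38.9 to 75.9) and 36.8 (26.7 to 52.2). Dlk1, an imprinted relative of the Notch ligands that holds back fat cell differentiation (ENSMUSG00000040856, chromosome 12, 109452823 to 109463336), had 18, 220, 80 and 69 reads. Its ratios were 13.5 (8.32 to 23.1), 4.88 (2.90 to 8.65) and 3.93 (2.31 to 7.02). Myoc was thus highest in the miR-26a libraries and Dlk1 in Cart-miR-23clus KO, with wild type lowest in both.

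Abundant genes in this group gave tight intervals. Lox, the lysyl oxidase that crosslinks collagen and elastin (ENSMUSG00000024529, chromosome 18, 52516067 to 52529867), had 1211 reads in wild type and 4416, 4198 and 3620 in the others, with ratios of 4.01 (3.77 to 4.28), 3.81 (3.57 to 4.06) and 3.07 (2.87 to 3.28). S100a6, a small calcium-binding protein, had 755, 2184, 2584 and 2816 reads and a smallest ratio of 3.18 (2.93 to 3.46). Serpine2, a protease inhibitor that blocks thrombin and plasminogen activators, had 855, 2001, 2084 and 1895 reads and a smallest ratio of 2.27 (2.10 to 2.47). Timp1, an inhibitor of matrix metalloproteinases that lies within Syn1 on the other strand, had 573, 1506, 1137 and 1599 reads and a smallest ratio of 2.18 (1.97 to 2.41). The 3 modified libraries lay within 1.5-fold of each other in each of these 4 genes.

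In the list of metalloproteinases and inhibitors, wild type was below all 3 others in 6 of 16 measured members and above in 4, near the 28.9% and 26.7% of all genes, with Serpine2 and Timp1 among those past 2-fold below. Timp2 had 887 TPM in wild type and 1309.6, 1685 and 1582 in the others. The proteases Mmp2 and Mmp14 were highest in wild type, at 162 and 178 TPM, with smallest ratios of 1.19 and 1.18. Mmp19 was the protease of the list lowest in wild type, so proteases lay on both sides and by small ratios.

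The metallothioneins Mt1 and Mt2, small cysteine-rich proteins that bind zinc and copper and are induced by metals, glucocorticoids and stress, lie side by side on chromosome 8. Mt1 (94179082 to 94180327) had 1349 reads in wild type against 5428, 3394 and 3938, with ratios of 4.43 (4.17 to 4.71), 2.76 (2.59 to 2.95) and 3.00 (2.82 to 3.19). Mt2 (94172664 to 94173568) had 785, 3428, 2078 and 2319 reads and ratios of 4.81 (4.45 to 5.20), 2.91 (2.68 to 3.16) and 3.03 (2.79 to 3.29). The order of the 4 libraries was the same in both genes. Slc30a1, a zinc exporter often induced with them, had 54, 58, 52 and 55 reads, and its intervals all included 1.
The promoters of the pair are shown because the order of the libraries was the same in both genes. Each window runs from 250 bases before to 50 bases after the RefSeq start on GRCm38.p6, 5′ to 3′ on the gene's strand. Capitals mark the metal response element, spelled TGCACNC or TGCGCNC on either strand.
Mt2 promoter, chr8:94172368-94172667, forward strand: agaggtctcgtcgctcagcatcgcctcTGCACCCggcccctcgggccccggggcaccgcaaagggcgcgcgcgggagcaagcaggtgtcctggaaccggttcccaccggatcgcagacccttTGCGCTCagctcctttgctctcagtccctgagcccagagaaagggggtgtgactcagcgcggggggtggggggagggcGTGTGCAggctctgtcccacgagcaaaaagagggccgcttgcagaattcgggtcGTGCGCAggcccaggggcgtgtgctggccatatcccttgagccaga
Mt1 promoter, chr8:94178839-94179138, forward strand: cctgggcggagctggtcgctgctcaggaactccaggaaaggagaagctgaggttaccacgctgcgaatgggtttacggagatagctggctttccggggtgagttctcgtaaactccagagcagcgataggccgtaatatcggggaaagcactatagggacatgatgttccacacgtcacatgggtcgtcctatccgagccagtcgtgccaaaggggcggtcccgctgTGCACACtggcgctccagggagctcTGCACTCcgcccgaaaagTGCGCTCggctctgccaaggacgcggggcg
The Mt2 window held 2 matches to TGCACNC and 2 to TGCGCNC, and that of Mt1 held 2 and 1. Among the 32851 promoter windows of the table, 12.6% held TGCACNC and 15.4% held TGCGCNC. Among the 7275 windows of genes past the filter the shares were 11.8% and 28.3%. A match is a string of letters and not a bound site.

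The widest agreement among the members was in mitosis. Of 69 genes listed for mitosis and spindle, 35 passed the filter, and wild type was below all 3 others in 34 and above all 3 in none, where 28.9% and 26.7% of all genes were. In 7 of the 35, all of them counted here, wild type was under 5 TPM, so these passed through the modified libraries and had to lie below some of them. The smallest ratio reached 2 in 17 of the 35, against 0.825% of all genes, which made 17 of the 59 genes of the whole set. Those under 5 TPM in wild type made up 6 of these 17 (Cdc25b, Ckap2l, Hmmr, Incenp, Racgap1 and Smc2), and the other 11 were at 5 TPM or more. The median log2 ratio of wild type to the others was -1.11 for Cart-miR-23clus KO, -1.09 for miR-26a KO and -1.25 for the mimic library. The listed genes summed to 1071 TPM in wild type and to 1930.0, 1769 and 1802 TPM in the others. Ccna2, cyclin A2, was the exception, with 23 reads in wild type against 16, 32 and 26.

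The genes covered successive steps of division. Ccnb1, cyclin B1, which drives entry into mitosis, had 14, 46, 51 and 37 reads and a smallest ratio of 2.71 (1.43 to 5.43). Cdk1, its kinase, had 85, 166, 163 and 163 reads and a smallest ratio of 1.97. Plk1, a mitotic kinase, had 45, 89, 114 and 135 reads and a smallest ratio of 2.18 (1.51 to 3.19). Cdc20, which activates the anaphase-promoting complex, had 33, 73, 83 and 90, and Ube2c, the ubiquitin-conjugating enzyme of that complex, had 30, 76, 65 and 76. Both had smallest ratios near 2.4, at 2.44 (1.59 to 3.79) and 2.38 (1.52 to 3.80).

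Genes of the spindle midzone and of chromosome separation were among them. Racgap1, which organises the central spindle (ENSMUSG00000023015, chromosome 15, 99620496 to 99651656), had 11, 34, 32 and 36 reads and ratios of 3.40 (1.68 to 7.45), 3.19 (1.57 to 7.03) and 3.36 (1.67 to 7.31). Prc1, which bundles antiparallel microtubules there, had 38, 93, 106 and 114 reads and a smallest ratio of 2.69 (1.83 to 4.04). Top2a, the topoisomerase that untangles sister chromatids, had 49, 97, 119 and 133 reads and a smallest ratio of 2.18 (1.53 to 3.14). Birc5, survivin of the chromosomal passenger complex, had 58, 121, 113 and 134 reads, and Incenp and Cdca8 of the same complex had 16 and 29 reads in wild type against 36 to 95 in the others. Zwint differed, with 58 reads in wild type against 273, 72 and 77, so that Cart-miR-23clus KO alone stood far off.

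DNA replication genes lay on the same side by less. Of 23 measured members, wild type was below all 3 others in 14 and above in none, against 28.9% and 26.7% of all genes. Gins2, among the 14, was under 5 TPM in wild type, at 4.70, and passed the filter through the modified libraries. Rrm2, the regulated subunit of ribonucleotide reductase, was past 2-fold with 30, 78, 68 and 84 reads and a smallest ratio of 2.49 (1.60 to 3.96). Median log2 ratios were -0.37, -0.32 and -0.38. Rrm1, the other subunit, had 23, 43, 40 and 53 reads and a smallest ratio of 1.91 (1.12 to 3.34), Tk1, thymidine kinase, had 25, 47, 44 and 66, and Mcm3 of the replicative helicase had 34, 70, 52 and 71. Pcna, the sliding clamp, had 41, 31, 45 and 37 reads, with wild type between the others.

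**Figure D4:**
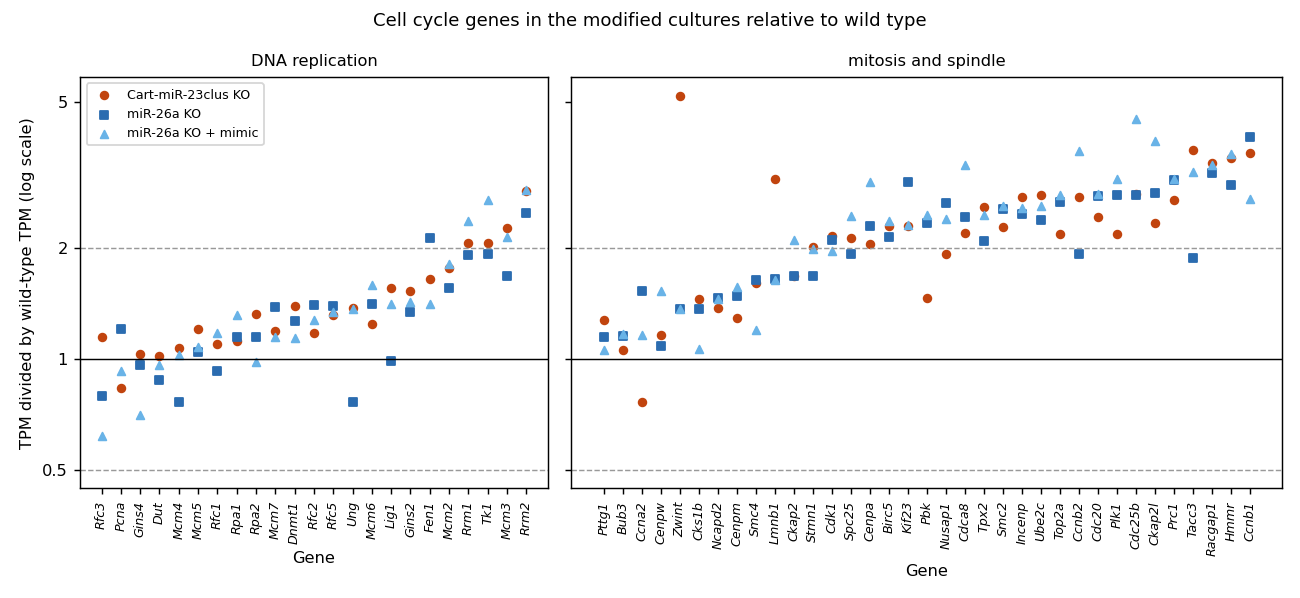
TPM of each modified library divided by that of wild type, on a log axis, for the 23 measured DNA replication genes (left) and the 35 mitosis and spindle genes (right); the solid line is equality with wild type and the dashed lines are 2-fold. All 3 points lie above the solid line for 14 replication genes and 34 mitosis genes, with Ccna2 as the 1 mitosis gene that crosses it.

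Promoters of mitosis genes are known for CCAAT boxes and for a cell cycle homology region spelled TTTGAA. Of the measured mitosis genes, 28 matched the RefSeq table with 30 windows of 300 bases, and 73.3% of these windows held both strings on either strand, against 4.44% of the windows of genes past the filter and 6.95% of all 32851 windows. For the 16 windows of mitosis genes past 2-fold the share was 81.2%, and for the 36 windows of the other genes at least 2-fold lower in wild type it was 11.1%. For 18 windows of 12 of the 20 genes higher in wild type it was 5.56%. The promoters of Racgap1, Cdc20 and Ube2c are shown as the midzone gene with the largest smallest ratio and a pair that acts in the anaphase-promoting complex, with the 2 strings in capitals.
Racgap1 promoter, chr15:99651607-99651906, reverse strand: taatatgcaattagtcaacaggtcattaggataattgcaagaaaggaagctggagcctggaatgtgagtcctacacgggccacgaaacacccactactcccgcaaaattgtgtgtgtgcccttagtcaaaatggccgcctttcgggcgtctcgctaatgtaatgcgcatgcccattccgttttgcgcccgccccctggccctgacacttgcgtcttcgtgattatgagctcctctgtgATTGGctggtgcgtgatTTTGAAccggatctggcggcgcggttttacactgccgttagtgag
Cdc20 promoter, chr4:118437294-118437593, reverse strand: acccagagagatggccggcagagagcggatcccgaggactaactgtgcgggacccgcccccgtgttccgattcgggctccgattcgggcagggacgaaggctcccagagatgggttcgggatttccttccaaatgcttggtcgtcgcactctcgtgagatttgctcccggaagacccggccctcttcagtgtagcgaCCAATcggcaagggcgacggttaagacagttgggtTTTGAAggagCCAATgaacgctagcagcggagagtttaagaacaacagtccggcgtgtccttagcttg
Ube2c promoter, chr2:164769679-164769978, forward strand: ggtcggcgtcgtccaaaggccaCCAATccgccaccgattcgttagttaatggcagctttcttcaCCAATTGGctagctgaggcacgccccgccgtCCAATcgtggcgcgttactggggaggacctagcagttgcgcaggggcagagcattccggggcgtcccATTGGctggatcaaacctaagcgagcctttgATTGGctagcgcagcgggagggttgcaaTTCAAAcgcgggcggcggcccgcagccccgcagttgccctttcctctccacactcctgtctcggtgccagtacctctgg
In these windows CCAAT was found 1, 2 and 6 times and TTTGAA once in each. The strings describe the genes and show no factor bound to them in these cultures.

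Ribosomal protein genes took the opposite place from the cell cycle genes. Wild type was above all 3 others in 64 of 80 measured members and below in 1, Rps25, which left that place under TMM and DESeq2 scaling, against 26.7% and 28.9% of all genes, though no member reached 2-fold. The median log2 ratios were 0.22, 0.22 and 0.16, and the listed genes summed to 173293 TPM in wild type and to 153369, 151739 and 159275 in the others. Rpl10 had 626 reads in wild type and 311, 371 and 407 in the others, a smallest ratio of 1.50 (1.32 to 1.70). Rplp0, a stalk protein often used as a reference gene, had 1682, 1242, 1383 and 1447 TPM and a smallest ratio of 1.16. Ribosomal protein genes have many processed copies in the genome, and how reads that fit several copies were counted is not given in the sources used here, so single members are uncertain.

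Antioxidant genes were mostly lowest in wild type. Of 27 measured members of the antioxidant and NRF2 target list, wild type was below all 3 others in 19 and above in none, against 28.9% and 26.7% of all genes. All intervals lay on 1 side of 1 in 10 of the 19, against 4.43% of all genes. Nqo1, a quinone reductase and standard NRF2 target, had 37, 80, 68 and 78 reads and a smallest ratio of 2.02 (1.33 to 3.10). Hmox1, heme oxygenase 1, lay just outside the limit with 87, 229, 182 and 168 reads and 1.98 (1.52 to 2.60). Gpx3, a secreted glutathione peroxidase, had 934, 2047, 1471 and 1676 reads and a smallest ratio of 1.73 (1.59 to 1.88). Fth1, ferritin heavy chain, had 3511, 7005, 4837 and 5381 TPM. Nfe2l2, which encodes NRF2 itself, had 137, 141, 127 and 150 reads.

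In the NF-kB list wild type was below all 3 others in 6 of 13 measured members and above in 2, against 28.9% and 26.7% of all genes, with Lcn2 and Icam1 past 2-fold. Icam1, an adhesion molecule for leukocytes, had 27, 166, 51 and 54 reads and a smallest ratio of 2.05 (1.27 to 3.39). The summed level of the list was 753 TPM in wild type against 3548, 747 and 793. The largest member was Cxcl12, a chemokine, at 390 TPM against 2831, 240 and 278. Without Cxcl12 the sums were 363, 717, 507 and 515 TPM, with wild type lowest. Of 16 immediate early genes wild type was below all 3 others in 8 and above in 3, against 28.9% and 26.7% of all genes. Ier2 had 29, 87, 57 and 56 reads and a smallest ratio of 1.98 (1.24 to 3.22), Junb 76, 160, 134 and 143 and 1.93 (1.45 to 2.58), and Fos 28, 79, 53 and 45 and 1.65 (1.01 to 2.75). Of 12 measured macrophage genes wild type lay between the others in 9, above them in 2 and below in 1, Lgals3, where all genes had 3175 of 7154 between, 26.7% above and 28.9% below, with median log2 ratios of -0.35, 1.48 and 0.61. The part of macrophage RNA in these results was not tested.

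Of 18 measured fibroblast and synovial lining genes, wild type was below all 3 others in 8 and above in 4, against 28.9% and 26.7% of all genes, and 1 member, Postn, was past 2-fold. Postn and Fbln2, both among the 8, were under 5 TPM in wild type, at 3.07 and 2.47. Both passed the filter through the modified libraries, so they had to lie below some of them. Postn, which encodes the matricellular protein periostin, had 10, 24, 28 and 30 reads and a smallest ratio of 2.64 (1.22 to 6.19). Of 7 tendon and entheseal genes, wild type was below all 3 others in 5 and above in none, against 28.9% and 26.7% of all genes. Scx, the tendon transcription factor scleraxis, had 51, 78, 89 and 108 reads and a smallest ratio of 1.68 (1.17 to 2.45). Thbs4, a thrombospondin of tendon, had 24, 38, 435 and 291 reads, so its distance from wild type lay mainly in the miR-26a libraries. Fn1, fibronectin, was nearly level, with 2539 TPM in wild type and 2434, 2405 and 2481 in the others.

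In the list of BMP and TGF-β genes wild type was above all 3 others in 11 of 32 measured members and below in 14, against 26.7% and 28.9% of all genes. Ltbp1 and Ltbp2, both among the 14, were under 5 TPM in wild type, at 4.76 and 0.848. They passed the filter through the modified libraries and had to lie below some of them. Tgfbr2, the type II TGF-β receptor, had 275, 93, 166 and 194 reads and a smallest ratio of 1.38 (1.15 to 1.67) in favour of wild type, while Id2, a target of BMP signals, had 386, 658, 549 and 501 and was lowest there. Nbl1, a secreted BMP antagonist outside that list, had 36, 96, 131 and 118 reads and a smallest ratio of 2.94 (1.98 to 4.43) below. Among 9 IGF system genes wild type was above all 3 others in 5 and below in 2, against 26.7% and 28.9% of all genes. Igfbp5 had 841, 523, 387 and 427 reads, and Igf1, the ligand, had 52, 154, 81 and 71. Cdkn1c, an imprinted inhibitor of cyclin-dependent kinases, had 87, 46, 12 and 8 reads and ratios of 1.72 (1.19 to 2.51), 6.60 (3.59 to 13.3) and 10.6 (5.15 to 25.3).

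**Figure D5:**
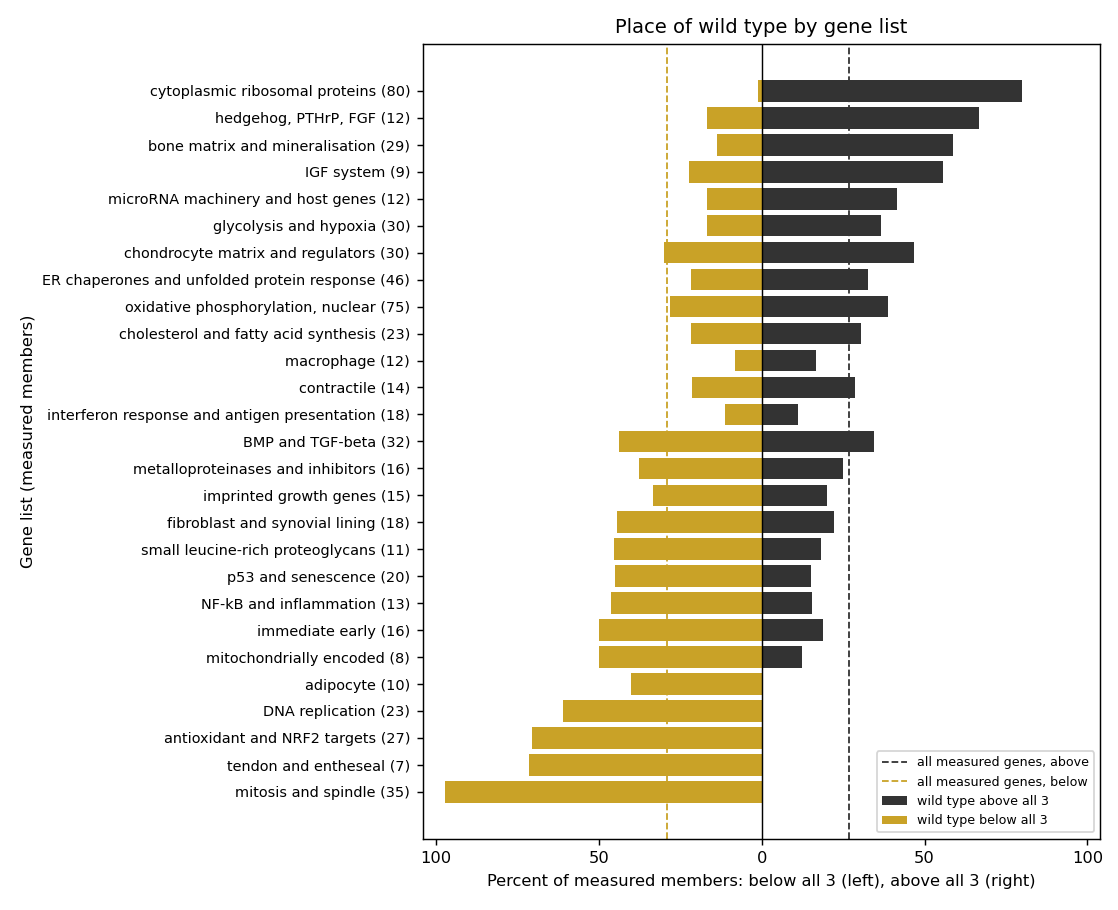
Percent of the members of each gene list with at least 7 measured members (number in brackets) in which wild type lay above all 3 others (dark bars, to the right) or below all 3 (gold bars, to the left); dashed lines give the same over all 7154 genes, 26.7% above and 28.9% below. Ribosomal proteins reach furthest to the right with 64 of 80 genes and mitosis furthest to the left with 34 of 35.

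Near the lower limit the set was as continuous as the upper one. Just inside were Cenpa (2.05), Nqo1 (2.02) and Fryl (2.01), and just outside Hmox1 (1.98), Ier2 (1.98) and Tgm2 (1.97). Of the 59 genes, 36 belonged to at least 1 of the lists and 23 to none. Those in no list included Anxa8, an annexin, with 22, 88, 142 and 192 reads, Nsg1, a vesicle protein, with 30, 101, 120 and 133, Maoa, monoamine oxidase A, with 20, 116, 72 and 63, and Tinagl1, a matricellular protein, with 33, 98, 91 and 99. Mustn1, a nuclear protein of muscle and skeleton, had 5, 40, 20 and 16 reads, and its nearest ratio of 3.28 had the wide interval of 1.15 to 11.5.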

How the data were processed

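RNA from 4 cultures was read with QuantSeq 3′ libraries as single-end reads and mapped by the authors to mm10 (GRCm38.p6 per the labels); aligner, counter, strand setting and annotation are not given in the sources used here. The authors deposited TPM for 4 libraries, made by dividing each gene's reads by a gene length and scaling to a fixed sum, which does not suit comparing genes with each other but cancels in ratios. The deposited estimated count (whole reads) covers 3 libraries, over 55450 genes. Mimic reads were recovered from TPM: 14429 of 14429 values tested were whole within 0.01, and 588 genes were not recovered. Groups came from the labels.

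Ratios are of TPM, with exact Clopper-Pearson intervals at 95% on reads put on the TPM scale, for counting error only. A TPM of 0 would be taken as 3 reads; no measured gene had one. List medians added 0.5 TPM. Genes named: the 25 highest ranks each way, up to 4 members of a list each way, and 3 on each side of 2-fold; others (such as Slc30a1, Nfe2l2, Bglap, Spp1 and class II genes) were chosen with values seen. Results for some genes of this rule are not reported here. Members, lists and rules were chosen with earlier results of these data known. Names came by identifier from GENCODE M21, matching 55141 genes; promoter and miRNA sequences from RefSeq. Reads of antisense or overlapping genes cannot be told apart without the strand setting. The steps were tested on simulated data. Alternatives were CPM, edgeR 4.0.16 TMM, DESeq2 1.42.0 size factors, added TPM, other filters and limits, and each library left out. Python 3.11.15, pandas 2.3.3, scipy 1.17.1 and R 4.3.3 were used.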

Additional observations from a re-analysis of the deposited data

How the results depend on the processing

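No paired analysis was possible because there was 1 library per condition. Main counts were 20 genes above and 59 below. Scaling reads to library totals gave 20 and 61, TMM 20 and 57, DESeq2 size factors 21 and 57, adding 0.5 TPM 20 and 56, and adding 2 TPM 19 and 45; of the 20 and 59 genes, at least 19 and 45 were shared with each of these. Leaving out 1 modified library gave 29 to 45 genes above and 79 to 108 below. Without Cart-miR-23clus KO there were 45 above and 108 below, and without the mimic library 31 above. With no filter there were 180 above and 678 below, and with 20 reads in every library 6 and 36. A smallest ratio of 1.5 gave 92 and 218, one of 3 gave 4 and 16, and every lower limit at 2 or more gave 7 and 17. With another library as the reference, Cart-miR-23clus KO gave 38 above, miR-26a KO 2 above and 14 below, and the mimic library 0 above and 9 below. The moves with the filter, the limits and a library left out follow from their construction: other genes enter, or fewer, looser or stricter conditions have to be met. The cause of the differences between reference libraries was not tested. Of the 232 genes recomputed, the smallest ratio of 3 crossed 1: Rps25 went from 1.00 to 0.987 under TMM and 0.994 under DESeq2 size factors, Lyz2 from 1.02 to 0.997 with library totals, and Impact from 1.03 to 0.999 under TMM. None of the others did so. In all, 2040 values for single genes and 279 list medians moved little, while 48 and 9 moved further. Under all 4 scalings mitosis was below in 34 of 35 members and ribosomal proteins were above in 60 to 66 of 80. Of all 7154 genes, 1977 to 2194 were below and 1804 to 2029 above under the same scalings. The ribosomal count of 60 came with 1804 genes above, under library totals, and that of 66 with 2029, under TMM. Depth limits the 23 of the 59 genes that had under 20 reads in wild type.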

Other observations

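Over all genes wild type lay above the 3 others in 26.7% and below them in 28.9%. For nuclear genes of oxidative phosphorylation, wild type was above all 3 others in 29 of 75 measured members and below in 21, with none past 2-fold. For endoplasmic reticulum chaperones and the unfolded protein response it was above in 15 of 46 and below in 10, with Lox as the only member past 2-fold. Glycolysis and hypoxia genes had 11 of 30 above and 5 below. Mitochondrially encoded genes had 4 of 8 below and 1 above: mt-Nd2 had 2332 TPM in wild type and 4019, 3429 and 2866 in the others, and mt-Co1 had 1098 against 932, 828 and 846.

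For interferon and antigen presentation genes, wild type lay between the others in 14 of 18 measured members, where all genes had 3175 of 7154. Adipocyte genes had 4 of 10 below, 6 between and none above, against 28.9% below and 26.7% above of all genes. In none of them did all 3 intervals lie on 1 side of 1. Fabp4, a fatty acid carrier and among the 4, had 60.9 TPM in wild type against 262, 77.4 and 115. Lpl, among the 6, had 78.6 TPM against 159, 28.6 and 41.3. Among miRNA machinery and host genes, Ago2, an Argonaute, had 125, 84, 92 and 100 reads, and Dicer1 had 76, 54, 60 and 67; wild type was highest in both, with smallest ratios of 1.22 (0.929 to 1.60) and 1.11 (0.785 to 1.56). Both of these intervals include 1.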
